A study of Mus musculus with 8 samples.

Results

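Serpins are a family of proteins that share a fold with an exposed reactive centre loop. An inhibitory serpin traps a serine or cysteine protease when the protease cleaves this loop, and the serpin is used up in the act. Hepatocytes secrete the serpins that hold blood clotting, fibrinolysis, complement and leukocyte proteases in check, while clade B serpins mostly stay inside cells. Rodents carry several copies of genes that other mammals have once, arranged in tandem arrays. The Serpin genes described here are the protein-coding genes of GENCODE release M21 (mm10) whose symbol starts with Serpin, 61 of 21951 protein-coding genes in all. A further 7 Serpin loci that the annotation lists as pseudogenes were left out, and the numbers of genes with an UP, DOWN, unchanged or any region at a TSS were the same when they were added.

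H3K27ac ChIP-seq was performed in mouse primary hepatocytes (MPH) from adult male WT C57Bl6 mice (C57BL/6J in the methods), kept in culture without serum. Cultures received 1 µM thapsigargin or vehicle (0.04% DMSO) for 4 h. Thapsigargin blocks the pump that loads calcium into the endoplasmic reticulum (ER) and so induces ER stress (ERS). There were 3 H3K27ac libraries per treatment from independent experiments and 1 input per treatment, 8 libraries in all, and all comparisons are of thapsigargin with DMSO. H3K27ac is an acetylated lysine of histone H3 found at active promoters and enhancers. The authors deposited 5508 regions where the mark rose (H3K27ac UP), 3376 where it fell (H3K27ac DOWN) and 23312 where it did not pass their test (H3K27ac unchanged), as positions without a value per library. Neither the size of a change nor its error between experiments can therefore be given, the depth is unknown, and what follows are counts, positions and widths without a test. A position in none of the lists is not a position without H3K27ac, since regions where neither direction of bins clearly outnumbered the other were discarded. An UP or DOWN region can thus hold some bins that moved the other way.

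The direction of the lists and the cell type were read from genes outside the family. The ERS response genes Hspa5, Ddit3, Herpud1 and Hsp90b1 all had a transcription start site (TSS) in an UP region. This bears on every UP and DOWN count, since the published code of the study sets thapsigargin as the reference level of its model, which on its own would give the opposite sign. The lists were read as they are named. Of the 5 hepatocyte markers that matched the annotation (Alb, Apoa1, Ttr, Cps1 and Hnf4a), 5 had a TSS in a region. These regions were DOWN for 2 (Apoa1 and Hnf4a, 40.0%), UP for 0 and unchanged for 3. A TSS lay in a region for 1 of 4 Kupffer cell and leukocyte markers (Cd68) and 1 of 4 endothelial markers (Stab2). It did for 0 of 4 stellate cell markers and 1 of 4 cholangiocyte markers (Sox9). The part of these other cell types in any region described here was not tested.

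The sequences below show the promoters on which the description turns. First come the promoters of 3 members with a DOWN region outside the Serpina1 copies, read from RefSeq on GRCm38.p6, the assembly of mm10. Each line gives the 250 bases before the RefSeq start, 5′ to 3′ on the strand of the gene, with a C/EBP motif (TTGNGCAA) in capitals where one was found. The motif of Serpina5, at -242 from its start, lies outside its DOWN region, which begins at 104101018.
Serpinf2 (chr11:75439502-75439751, minus strand): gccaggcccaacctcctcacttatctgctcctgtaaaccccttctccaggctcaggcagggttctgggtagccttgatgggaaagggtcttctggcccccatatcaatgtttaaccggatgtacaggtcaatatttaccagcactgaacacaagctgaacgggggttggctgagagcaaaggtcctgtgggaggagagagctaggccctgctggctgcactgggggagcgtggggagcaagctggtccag
Serpina5 (chr12:104100863-104101112, plus strand): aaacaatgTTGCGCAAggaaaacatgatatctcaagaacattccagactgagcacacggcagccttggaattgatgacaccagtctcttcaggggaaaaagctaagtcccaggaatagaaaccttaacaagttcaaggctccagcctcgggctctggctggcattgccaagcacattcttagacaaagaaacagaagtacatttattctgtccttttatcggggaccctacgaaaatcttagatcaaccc
Serpinb6b (chr13:32965011-32965260, plus strand): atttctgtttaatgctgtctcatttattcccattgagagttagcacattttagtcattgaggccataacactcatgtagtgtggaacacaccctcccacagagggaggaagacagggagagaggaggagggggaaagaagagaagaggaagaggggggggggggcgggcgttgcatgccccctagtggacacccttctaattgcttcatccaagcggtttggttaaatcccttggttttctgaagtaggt

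Then come the 5 Serpina1 copies, which encode alpha-1-antitrypsins, to show how alike promoters in different classes are. Capitals mark CCAAT (or ATTGG, its reverse complement) and an AP-1 motif (TGANTCA). The Serpina1a and Serpina1b starts lay in DOWN regions, that of Serpina1c in an unchanged region, and those of Serpina1d and Serpina1e in none.
Serpina1a (chr12:103863620-103863869, minus strand): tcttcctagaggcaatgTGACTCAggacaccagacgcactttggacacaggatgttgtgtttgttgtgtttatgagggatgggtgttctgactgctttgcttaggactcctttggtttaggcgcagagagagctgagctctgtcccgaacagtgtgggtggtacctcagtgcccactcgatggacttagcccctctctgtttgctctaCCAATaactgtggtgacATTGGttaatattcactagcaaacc
Serpina1b (chr12:103738190-103738439, minus strand): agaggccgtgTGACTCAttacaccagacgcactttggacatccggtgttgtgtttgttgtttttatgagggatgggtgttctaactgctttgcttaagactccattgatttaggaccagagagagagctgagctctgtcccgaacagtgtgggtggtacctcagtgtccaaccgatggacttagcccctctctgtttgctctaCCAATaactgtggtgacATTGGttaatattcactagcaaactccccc
Serpina1c (chr12:103904951-103905200, minus strand): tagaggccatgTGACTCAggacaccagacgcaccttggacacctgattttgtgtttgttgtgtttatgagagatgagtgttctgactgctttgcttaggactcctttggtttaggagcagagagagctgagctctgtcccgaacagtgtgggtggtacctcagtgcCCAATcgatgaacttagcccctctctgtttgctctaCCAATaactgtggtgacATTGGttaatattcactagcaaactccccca
Serpina1d (chr12:103773634-103773883, minus strand): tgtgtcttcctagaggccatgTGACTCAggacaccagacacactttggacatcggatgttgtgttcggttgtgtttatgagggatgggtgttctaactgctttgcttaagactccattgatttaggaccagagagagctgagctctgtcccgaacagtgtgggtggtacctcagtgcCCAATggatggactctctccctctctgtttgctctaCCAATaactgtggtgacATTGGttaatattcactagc
Serpina1e (chr12:103956898-103957147, minus strand): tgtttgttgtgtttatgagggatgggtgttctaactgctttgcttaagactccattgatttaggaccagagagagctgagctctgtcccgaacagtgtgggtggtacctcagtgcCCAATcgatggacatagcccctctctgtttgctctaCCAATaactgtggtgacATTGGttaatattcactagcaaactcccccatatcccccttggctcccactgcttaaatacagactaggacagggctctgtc

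Over their aligned bases, Serpina1a and Serpina1b were 91.9% identical, Serpina1a and Serpina1c 95.5%, and Serpina1a and Serpina1d 92.7%. The lowest identity among the 10 pairs was 91.6% (Serpina1b and Serpina1c) and the highest 97.0% (Serpina1b and Serpina1e). The RefSeq start of Serpina1e lies farther downstream than those of the other copies, so that 200 columns or fewer were aligned in each of its pairs. The AP-1 motif, 229 to 240 bases before the start in Serpina1a to Serpina1d, was not in the window of Serpina1e. All 5 copies had a CCAAT followed by an ATTGG, and Serpina1c, Serpina1d and Serpina1e had a further CCAAT upstream of these. The pair with DOWN regions, Serpina1a and Serpina1b, was at 91.9% near the lower end of these identities. Any bearing of promoter sequence on class was not tested.

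A TSS lay in at least 1 H3K27ac region for 22 of the 61 Serpin genes (36.1%), against 9820 of the 21951 protein-coding genes (44.7%). Among these 22 genes, 5 had a DOWN region (22.7%), which compares with 8.33% of all protein-coding genes with a region. Only 1 Serpin gene had an UP region at a TSS (4.55%), against 21.6% in the background. The other 16 genes had unchanged regions only (72.7%, against 74.9%). No member had regions of different classes at its TSSs. The DOWN share of the family was thus above that of all genes and its UP share below it, on counts of 5 genes and 1 gene for which no test was made. The 5 genes with a DOWN region were Serpina1a, Serpina1b, Serpina5, Serpinf2 and Serpinb6b.

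**Figure D1:**
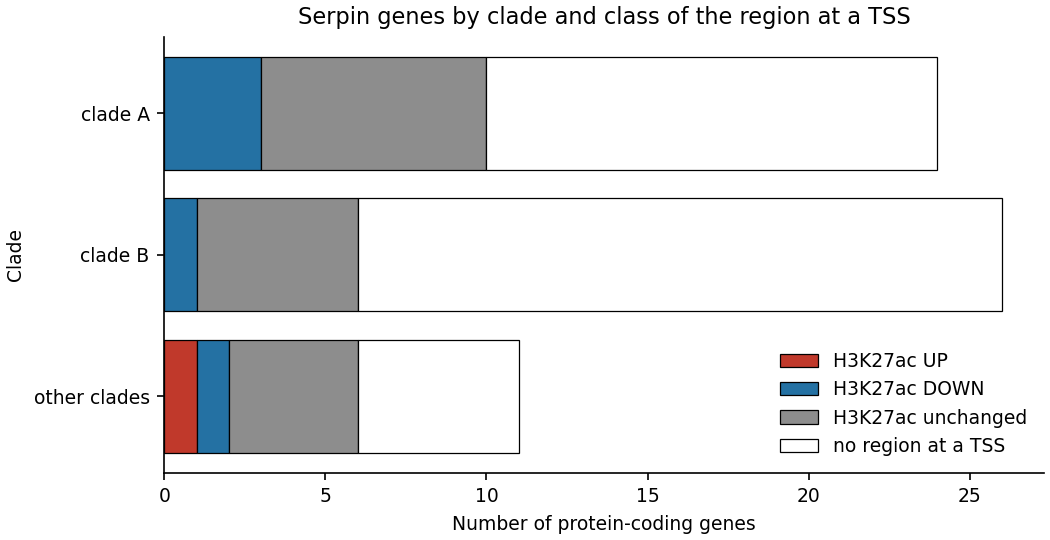
Bars count the protein-coding Serpin genes of clade A (Serpina), clade B (Serpinb) and the remaining clades together, by the class of the H3K27ac region at a TSS (UP, DOWN, unchanged or no region). Of 24 Serpina genes 10 had a region at a TSS, 3 of them DOWN, and of 26 Serpinb genes 6 had one, 1 of them DOWN. Of the 11 genes of the remaining clades 6 had one.

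Serpinf2 encodes alpha-2-antiplasmin, the main plasma inhibitor of plasmin. Its DOWN region, on chromosome 11 from 75437941 to 75444814, was 6874 bp wide and held all 4 annotated TSSs. The neighbouring Serpinf1 encodes the pigment epithelium-derived factor, a serpin without known protease inhibition. Serpinf1 had an unchanged region of 2500 bp with 4 of its 8 TSSs, so that the pair differed in class.

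The other plasma inhibitors outside the arrays had unchanged regions. Serpinc1, which encodes antithrombin, the inhibitor of thrombin and factor Xa, had unchanged regions of 6267 and 4029 bp at 5 and 2 of its 8 TSSs, the narrower shared with a TSS of Gm37729. Serpind1, which encodes heparin cofactor II, had one of 2743 bp at its TSSs and others of 3796 and 2897 bp within 10 kb. A DOWN region lay over the Serpind1 gene body at 11853 bp from the nearest TSS. Serping1, which encodes the C1 inhibitor of complement and kallikrein, had an unchanged region of 3028 bp. Serpina7, the thyroxine-binding globulin gene on chromosome X, had an unchanged region of 4496 bp, shared with a TSS of 4930513O06Rik, and an UP region of 1099 bp at 6069 bp from its nearest TSS.

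Clades H and I had no region at a TSS. Serpinh1 encodes a collagen chaperone that resides in the ER. No region lay within 50 kb of its TSSs, and the nearest, at 120330 bp, was UP. Serpini1, which encodes neuroserpin, had no region at a TSS but an unchanged region of 1428 bp at 115 bp from one. The nearest region to Serpini2 was 260210 bp away. Serpine2, which encodes protease nexin 1, and Serpine3 had none at a TSS either. The nearest region to Serpine2 was unchanged and lay 998 bp away, and that to Serpine3 lay 87653 bp away. A gene that lacks a region here may still carry H3K27ac below the filter of the lists.

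The Serpina cluster on chromosome 12 held 23 of the 24 Serpina genes, from Serpina10 to Serpina3n. With 10 kb on either side it spanned 819.5 kb and held 34 regions, of which 5 were UP, 5 DOWN and 24 unchanged. This is 41.5 regions per Mb, compared with 12.6 per Mb over the genome. Of all 32196 regions, 17.1% were UP, 10.5% DOWN and 72.4% unchanged. At a TSS, 9 of the 23 genes had a region. These were DOWN for 3 genes (33.3% of the 9), UP for 0 and unchanged for 6 (66.7%), beside the 8.33% and 21.6% of all genes given above for DOWN and UP. None of the 5 UP regions of the cluster held a Serpin TSS, while 3 of its 5 DOWN regions did. Over the genome, 1885 of the 5508 UP regions and 793 of the 3376 DOWN regions held a protein-coding TSS. The DOWN regions at Serpina1a and Serpina1b lie in copies that share sequence, and that at Serpina5 was 339 bp wide. No test was made on these counts.

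**Figure D2:**
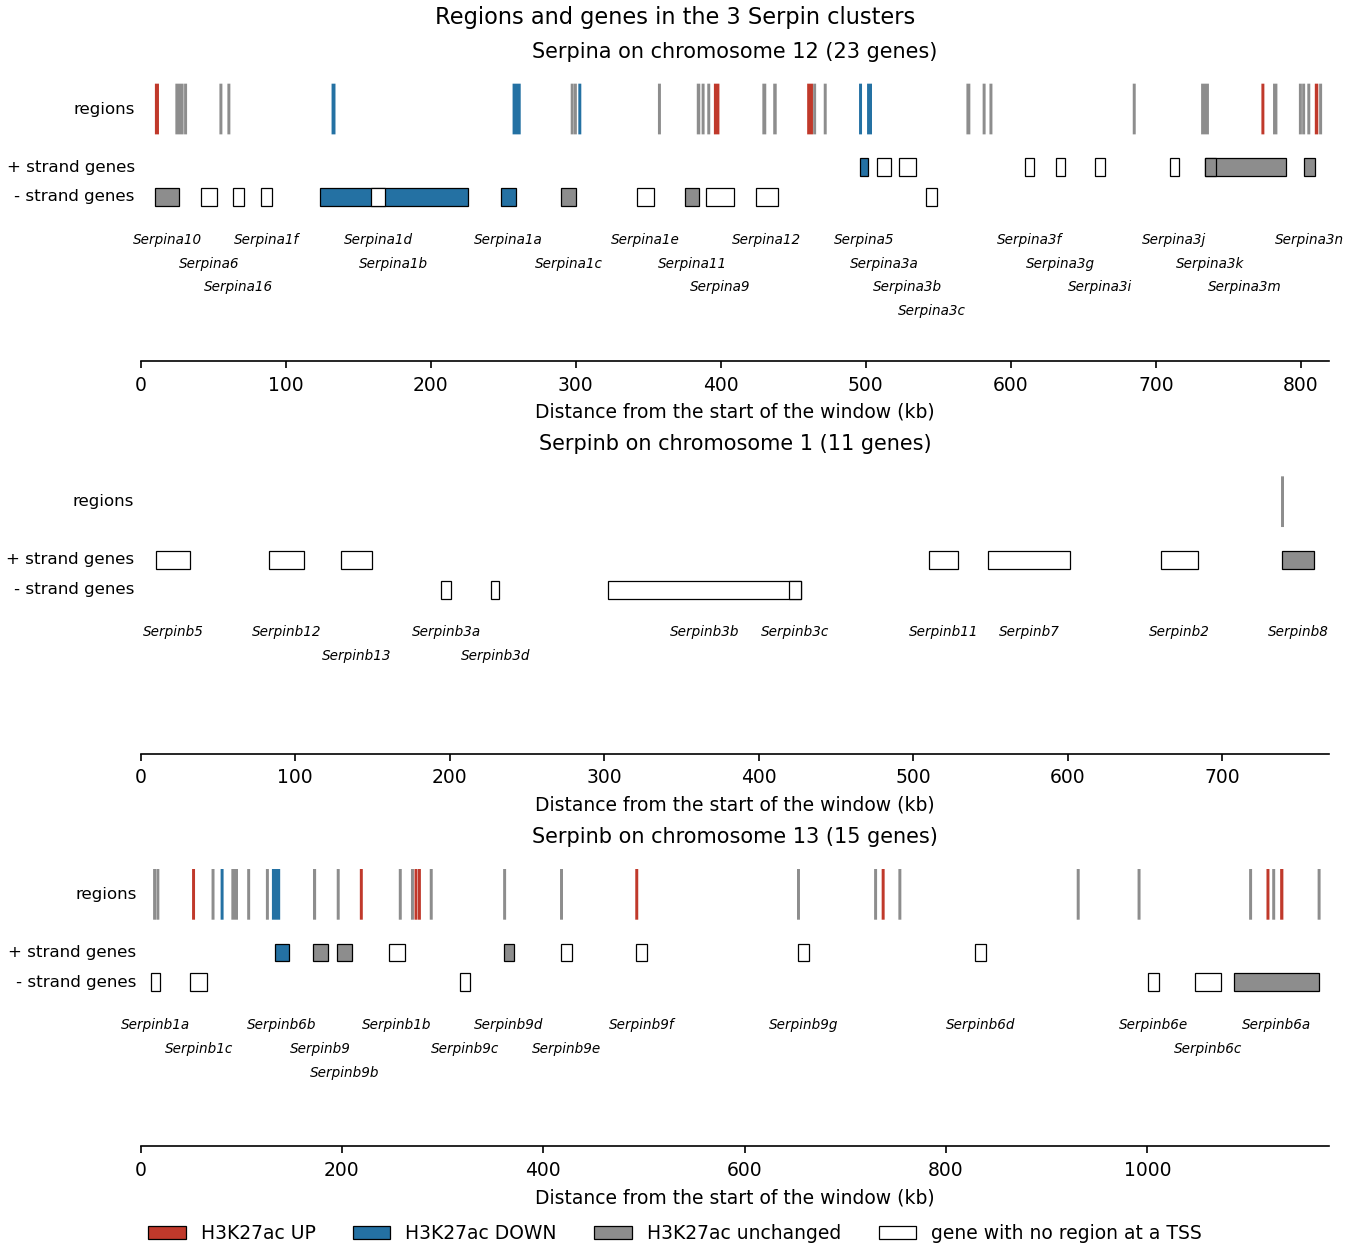
Each panel shows 1 Serpin cluster with the distance in kb from the start of its window on the x axis, the H3K27ac regions by class in the upper row and the genes of each strand below, filled by the class at their TSSs. Regions that would be too thin to see are drawn wider than scale. DOWN regions of the chromosome 12 cluster lie at the Serpina1 copies and at Serpina5, and the chromosome 1 cluster has 1 region.

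The DOWN regions of the cluster sat in 2 stretches. The Serpina1 copies, from Serpina1b to Serpina1e with 5 kb on either side, held 3 DOWN regions with 9406 bp in all, 3 unchanged regions with 4034 bp and 0 UP regions. Serpina1a, whose product blocks neutrophil elastase, had a DOWN region of 5608 bp with all 3 of its TSSs (chromosome 12, 103861322 to 103866929). That of Serpina1b was 2696 bp wide with 1 of its 3 TSSs (103736464 to 103739159). At Serpina1c, an unchanged region of 1006 bp held the TSS and a DOWN region of 1102 bp lay 2220 bp from it. Serpina1e had an unchanged region of 1681 bp at 2684 bp. The nearest region to Serpina1d, the DOWN region of Serpina1b, lay 34433 bp away, although the annotation has a long transcript of Serpina1b that spans Serpina1d.

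The other stretch, Serpina5 and Serpina3a to Serpina3c with 5 kb on either side, held 2 DOWN regions and none of another class. Serpina5 encodes the protein C inhibitor. Its single TSS lay 95 bp inside a DOWN region of 339 bp, the narrowest of the regions at a Serpin TSS and of all 793 DOWN regions at a protein-coding TSS. The other DOWN region was 3453 bp wide and covered the 3′ end of Serpina5, at 4532 bp from its TSS and 3627 bp from the nearest TSS of Serpina3a. These stretches were drawn after the positions were seen.

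Unchanged regions held the TSSs of the remaining 6 genes of the cluster. Serpina10, which encodes an inhibitor of factor Xa that acts with protein Z, had one of 5735 bp, with an UP region of 2831 bp at the 3′ end of the gene. Serpina11 had one of 2405 bp. Serpina3k and Serpina3m, of the antichymotrypsin group, shared one of 5363 bp through a Serpina3m transcript that starts with Serpina3k. Serpina3m had another of 3039 bp and an UP region of 1017 bp at 8064 bp from its nearest TSS. Serpina3n, an acute-phase inhibitor of leukocyte proteases, had an unchanged region of 1396 bp and an UP region of 2436 bp at 7654 bp.

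Of the 14 genes of the cluster with no region at a TSS, Serpina6, Serpina16, Serpina1e, Serpina9, Serpina12 and Serpina3a had one within 10 kb. Serpina6 encodes the corticosteroid-binding globulin, and its nearest region was unchanged and lay 2399 bp away. Serpina12 encodes vaspin, and its nearest region, also unchanged, lay 1051 bp away. An UP region of 3844 bp over the body of Serpina9 came within 9730 bp of its TSSs. An UP region of 4021 bp lay between Serpina12 and Serpina5. The genes from Serpina3f to Serpina3j had 1 region between them, unchanged and 440 bp wide. Those genes and Serpina1f, Serpina3b and Serpina3c had no region within 10 kb.

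The 26 Serpinb genes, which act mostly inside cells, lay in arrays on chromosomes 1 and 13 that differed in the density of regions. The chromosome 13 cluster, with 15 genes over 1180.7 kb, held 31 regions (8 UP, 2 DOWN and 21 unchanged), or 26.3 per Mb. The shares of all regions were 17.1% UP, 10.5% DOWN and 72.4% unchanged, as given above. The chromosome 1 cluster, with 11 genes over 769.3 kb, held 1 region, or 1.3 per Mb. This was an unchanged region of 475 bp at Serpinb8, the furin inhibitor gene, with 1 of its 3 TSSs, 22 bp inside it. The other 10 genes of the cluster, among them Serpinb2, Serpinb5 and the Serpinb3 copies, are best known from epithelia and leukocytes. Their nearest region lay between 63868 bp (Serpinb5) and 311663 bp (Serpinb3b) away.

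On chromosome 13, Serpinb6b had a DOWN region of 8226 bp at 3 of its 4 TSSs (32962614 to 32970839), the widest DOWN region at a Serpin TSS. Serpinb6b belongs to the mouse group related to SERPINB6, an inhibitor of cathepsin G. Serpinb6a, of the same group, had unchanged regions of 2832 and 1592 bp, shared with TSSs of 1110046J04Rik and Ripk1, and UP regions of 2849 and 3242 bp over the gene body. Serpinb9, the granzyme B inhibitor gene, Serpinb9b and Serpinb9d had unchanged regions of 3122, 2918 and 1915 bp. No gene of the array had an UP region at a TSS, but that of Serpinb9f missed one of 1199 bp by 305 bp. Serpinb1a, Serpinb9g and Serpinb9e missed unchanged regions of 289, 1052 and 296 bp by 114, 308 and 523 bp. Serpinb1b and Serpinb1c had unchanged regions at 4611 and 4559 bp. Serpinb9c, Serpinb6c, Serpinb6d and Serpinb6e had none within 10 kb.

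Counted within 10 kb of a TSS, 36 Serpin genes had a region (59.0%, against 57.4% of all protein-coding genes). UP regions were then near 6 genes (16.7% of the 36, against 29.0% of all genes with a region within 10 kb), DOWN regions near 7 (19.4%, against 14.1%) and unchanged regions near 29 (80.6%, against 85.6%). The genes added to the UP count were Serpina9, Serpina3m, Serpina3n, Serpinb9f and Serpina7, and those added to the DOWN count were Serpina1c and Serpina3a. The DOWN share of the family was closer to the background at this distance than at the TSS. In the chromosome 12 cluster, 15 of the 23 genes had a region within 10 kb, UP for 3, DOWN for 5 and unchanged for 10.

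Regions at Serpin TSSs were wide. The 24 of them had a median width of 2973 bp, against 1731.5 bp for the 9704 regions at a protein-coding TSS, and 19 were wider than that median. Width bears on class, since among the latter 1.33% were DOWN in the narrowest decile and 29.2% in the widest (5161 bp and over), while UP regions made 8.83% and 25.7%. Of the 7 Serpin regions of 5 kb and over, 3 were DOWN (Serpinb6b, Serpinf2 and Serpina1a) and 3 unchanged (Serpinc1, Serpina10 and the Serpina3k start). This is 3 DOWN of 7, beside 28.6% of the 1034 regions of this width at protein-coding TSSs. The other DOWN regions were that of Serpina1b, in the eighth decile, where 9.27% were DOWN, and that of Serpina5, in the narrowest. The part of width in the DOWN share of the family was not tested.

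**Figure D3:**
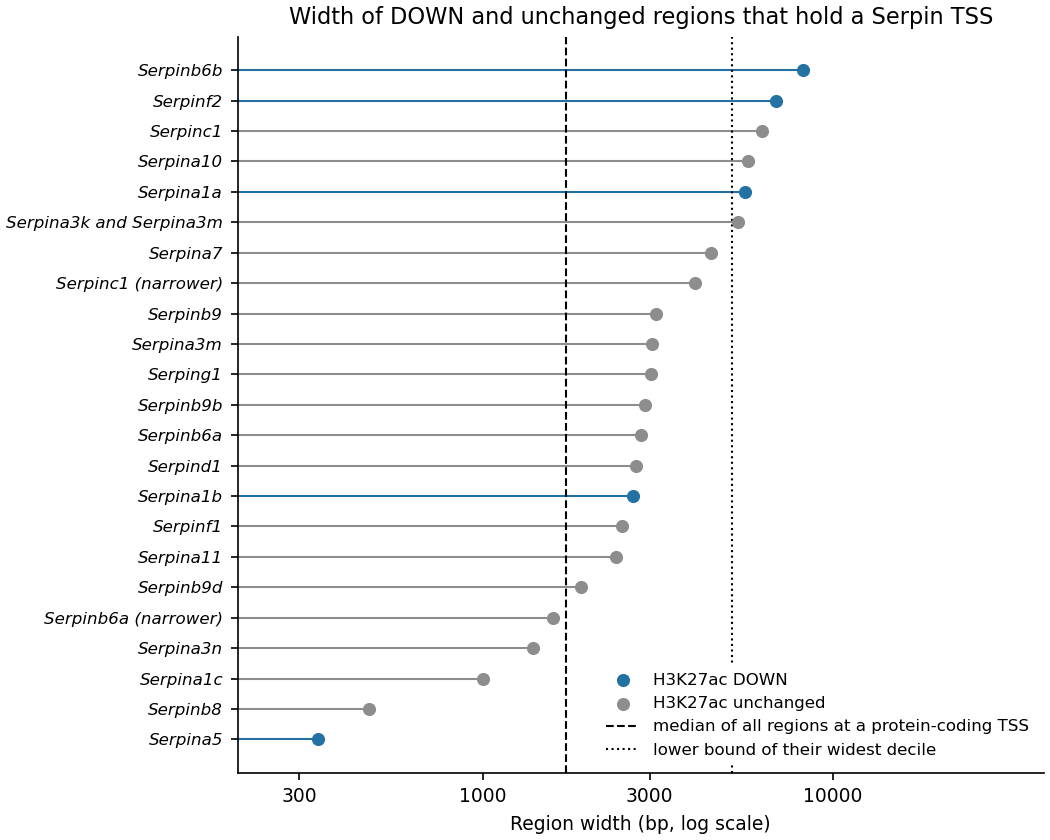
Points give the width in bp, on a log scale, of the 23 DOWN and unchanged regions that hold a Serpin TSS. The dashed line marks the median of all regions at a protein-coding TSS (1731.5 bp) and the dotted line the lower bound of their widest decile (5161 bp). DOWN regions stand at both ends of the range, from 339 bp at Serpina5 to 8226 bp at Serpinb6b.

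Since reads were 50 bases long, a region can be placed with certainty only where words of 50 bases occur once in the genome. Over the words within 500 bp of the TSS, this share was 59.9% at the best TSS of Serpina1a, 67.2% at the Serpina1b TSS inside its region, 69.2% at Serpina1c, 56.5% at Serpina1d and 54.6% at the Serpina1e TSS next to its RefSeq start. The median was 100% over 21938 protein-coding genes and over the 22 Serpin genes with a region. These medians are not of like measures. The former is of every 10th word at the 5′ end of the gene, the latter of all words at the best TSS. Within the regions themselves, 63.7% of words occurred once in the DOWN region of Serpina1a, 68.1% in that of Serpina1b and 59.5% in the unchanged region of Serpina1c. At Serpina5 and Serpinb6b all words of the DOWN region occurred once (100%), and at Serpinf2 98.1% did. The code of the study counted reads with no limit on mapping quality, and how the aligner placed reads with several matches is not given in the sources used here, so the classes of the Serpina1 copies cannot be taken as fully separate measurements.

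Outside the Serpina1 copies, the lowest shares at the best TSS were 61.8% at Serpinb9f, 73.2% at Serpinb9e, 81.9% at Serpina3k and 83.6% at Serpinb9g. Among the 39 Serpin genes with no region at a TSS, 33 had a TSS with at least 90% of words found once, as did 17 of the 22 with a region. Over protein-coding genes, 19071 of 21938 reached 90% at the 5′ end of the gene. The other 6 Serpin genes without a region included Serpina1d and Serpinb9f. Whether repeated sequence hid regions there was not tested.

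**Figure D4:**
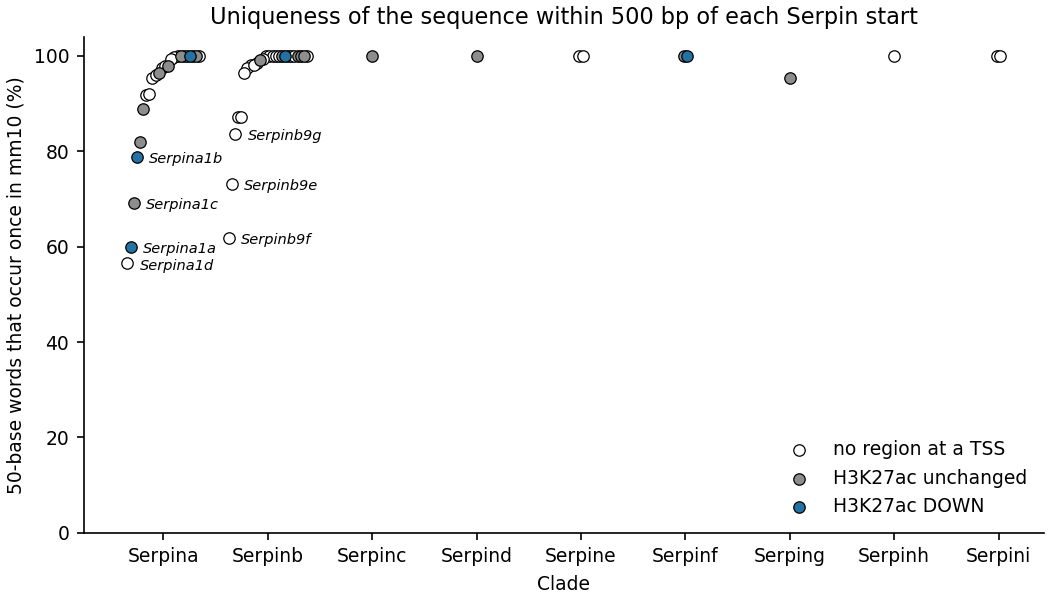
Points give, for each Serpin gene with DOWN, unchanged or no regions at its TSSs, by clade, the percent of 50-base words within 500 bp of a TSS that occur once in mm10, at the TSS with the highest value, and are filled by class. Most genes lie near 100%, and Serpina1d, Serpina1a, Serpinb9f, Serpina1c and Serpinb9e, of DOWN, unchanged and no region, lie lowest. The point of Serpina1b (78.8%) is of a TSS outside its DOWN region.

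RefSeq promoters, from 250 bases before to 50 bases after the start, were matched for 52 of the 61 genes. They made 61 promoters in all, of which 19 had their start in a region. Genes not matched included Serpina10, Serpina3k, Serpina3m and Serping1, which had unchanged regions at their TSSs. Their promoters were not searched. Motifs were searched on both strands in these and in all 32851 mouse promoters of the table. A TATA box (TATAAA) was found in 18 Serpin promoters (29.5%, against 13.6% of all), 2 of them, both of Serpina7, with the start in a region. The AP-1 motif (TGANTCA) was found in 11 (18.0%, against 7.81%), among them the copies Serpina1a to Serpina1d, which share it. The C/EBP motif (TTGNGCAA) was found in 2 (3.28%, against 2.94%), Serpina5 and Serpinb12. The ATF4-CHOP motif (TGATGCAA) was found in 3 (4.92%, against 0.895%), Serpinb6c, Serpinb9c and Serpinf1, none with a changed region.

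CCAAT was found in 21 Serpin promoters (34.4%, against 37.4% of all). HNF1 (GTTAATNAT) and D-box (TTANGTAA) motifs were found in 1 each, Serpini2 and Serpina3b (1.64% each, against 0.801% and 2.32% of all). The printed Serpina1 promoters all hold GTTAATATT, which is close to the HNF1 letters but was not counted as a match. FOXA (TGTTTAC), HNF4 (CAAAGTCCA) and UPRE (TGACGTGG) motifs were found in 0 of the 61 matched promoters, against 3.65%, 0.475% and 0.676% of all promoters. The ERSE, a CCAAT and a CCACG with 9 bases between them, was also found in 0, against 0.119%. A CCAAT inside an ERSE would count under both. These letters are a narrow reading of each motif, and a missing match says only that they were not in this window. The median GC content was 48.7% in Serpin promoters and 52.7% in all, with a median of 3 and 7 CpG dinucleotides.

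Proteases, receptors and cofactors that serpins act on were taken from a list of 32 genes. A TSS lay in a region for 23 of them, UP for 3, DOWN for 4 and unchanged for 18. The DOWN genes were F11 and F12, the clotting proteases held in check by antithrombin and the C1 inhibitor, Tmprss6, a liver protease, and Lrp1, the receptor that clears serpin and protease complexes. Lrp1 also had an UP region, and the other UP genes were Masp1, a protease of the lectin pathway of complement, and Ctsb, a lysosomal cysteine protease, which had an unchanged region as well. Of 30 other protease inhibitor genes 17 had a region at a TSS. These were DOWN for Ahsg and Pzp, the latter with an unchanged region too, UP for Itih2 and unchanged for 15. The DOWN shares were thus 17.4% for the targets and 11.8% for the other inhibitors, beside 22.7% for the Serpin genes and 8.33% for all genes, and the UP shares 13.0% and 5.88%, beside 4.55% and 21.6%.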

How the data were processed

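H3K27ac ChIP and input DNA of MPH was sequenced as single-end 50-base reads. The authors mapped reads to mm10 with Bowtie, removed duplicates and blacklisted positions, called broad peaks with MACS2, and tested bins with csaw in a fit paired by experiment. Bins of a peak were combined, and peaks were listed as UP, DOWN or unchanged. The deposited lists hold positions in base pairs (unit: other), with no counts, and the pairing of libraries cannot be repeated from them.

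Here a gene took the class of each region that holds the TSS of any of its transcripts in GENCODE M21. Clusters were runs of Serpin genes with at most 500 kb between them. Genes were named where a region lay at or within 10 kb of a TSS, and others for their clade or cluster. Words of 50 bases were counted on both strands of 21 chromosomes of GRCm38. Promoters of the Serpina1 copies were aligned in pairs with free end gaps. The members and lists were chosen with earlier results of these data known. The values of 1 member are not reported here, though it is in the counts of the family. Alternatives were distances of 10 and 50 kb, gene bodies, regions of at least 1 kb, 500 bp of cover on each side of the TSS, and the other settings named in the closing section. Counting functions were tested on simulated data. Python 3.11.15, numpy 2.4.6, pandas 2.3.3, numba 0.67.0 and matplotlib 3.10.9 were used.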

Additional observations from a re-analysis of the deposited data

How the results depend on the processing

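Each of the 7 counts (Serpin genes and chromosome 12 Serpina genes with a DOWN, UP or unchanged region at a TSS, and Serpin genes with any) was recomputed under 9 alternatives, with 48 values within 1.5 times the reported one and 15 beyond it. With regions within 10 kb of a TSS, Serpin genes had UP regions in 6 cases, unchanged in 29 and any in 36, and chromosome 12 genes DOWN in 5, UP in 3 and unchanged in 10. Within 50 kb, Serpin genes had DOWN regions in 17 cases, UP in 25, unchanged in 44 and any in 47. Genes with any region made 77.0% of the family, against 73.9% of all protein-coding genes. Those with an unchanged region made 93.6% of the 47, against 94.4%. The UP share of the family was then 53.2% against 46.9% of all genes with a region and the DOWN share 36.2% against 27.7%, so that the UP share stood above the background at this distance and below it at the TSS. Chromosome 12 genes had DOWN regions in 10 cases, UP in 11 and unchanged in 21. These were 43.5%, 47.8% and 91.3% of the 23 with a region, against 27.7%, 46.9% and 94.4% of all genes. With any overlap with the gene body, UP regions rose to 7 Serpin genes and 3 chromosome 12 genes. These were 22.6% and 27.3% of those with a region, below the 29.8% of all genes. The DOWN share of the family was then 19.4%, against 15.3%. The settings of 10 kb, 50 kb and gene bodies each take in regions farther from the TSS. The count of 5 Serpin genes with a DOWN region was 4 with the 5′ end of the gene only. It was also 4 with regions of at least 1 kb (which leaves out Serpina5) or with 500 bp of cover on each side. It stayed 5 with TSSs of protein-coding transcripts, with each gene counted once and with pseudogenes. With the 5′ end only, the DOWN share of the family was 21.1%, against 6.93% of all genes with a region. With 500 bp of cover it was 22.2% against 11.1%. Regions of at least 1 kb gave 4 of 20 genes, against 10.1%. With protein-coding transcripts it was 23.8% against 7.68%, and with each gene counted once 22.7% against 7.75%. Under the 1 kb and 500 bp settings the family stood above all genes by less than the reported 22.7% against 8.33%.

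No paired analysis was possible because the lists are pooled over the libraries. Replicates were not left out in turn either, since a region has no value of its own in each library. The lists hold no counts, so depth is unknown at every gene.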
